A study of Mus musculus with 12 samples.

Results

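The complement component genes described here are C3, C4b, Hc (complement component 5), C6, C7, C8a, C8b, C8g, C9 and Cfb (complement factor B). They are 10 of the 21911 protein-coding gene symbols of GENCODE M21 on mm10. Acetylation at each gene was read from every peak of histone H3 acetylated at lysine 9 (H3K9ac) that overlapped the gene body or the 5 kb either side of the gene start, which gave 107 of the 102889 peaks in 6 lists. C6 was chosen by its values in these same lists, which gave it an acetylated region specific to MSM, so its levels in the parental strains are a description and received no test. The other 9 genes were listed for their place in the cascade, with earlier results of these data known.

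H3K9ac was mapped in adult mouse livers by sequencing of immunoprecipitated chromatin (ChIP-seq), to compare strains and their hybrids. The 12 labelled samples were 6 H3K9ac libraries, analysed here, and 6 input libraries, not analysed here. Of the H3K9ac libraries, 2 came from C57BL/6J (B6), the strain of the reference genome, and 2 from MSM/Ms (MSM), an inbred strain of wild mice from Japan, each from a separate animal. The reciprocal hybrids had 1 library each, titled BM (F1 BM) and MB (F1 MB). The titles do not state which strain was the mother. None of the groups carried a transgene or received a treatment according to the labels, and the sex of the mice was not labelled.

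Complement is a cascade of plasma proteins, most of them made by hepatocytes, that marks and lyses microbes. The classical and lectin pathways cleave C4 and C2, the alternative pathway uses factor B, and all of them converge on the cleavage of C3 and then of C5. The fragment C5b recruits C6, C7, C8 (a trimer of the alpha, beta and gamma chains encoded by C8a, C8b and C8g) and C9, and together these form the membrane attack complex, a pore. H3K9ac marks the starts of genes that are being transcribed.

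The regions on which the comparison between the strains turned are shown first. In C6 and C9 a region carried a peak in both MSM lists and in neither B6 list, with the summits inside intron 1, and 200 bases around the mean summit of those peaks were read from the reference (GRCm38.p6, the build of mm10), plus strand. Capitals mark matches to 4 motifs searched on both strands: TATAAA, the TATA box, then GTTAAT, 1 side of an HNF1 site, CAAAGTCCA, an HNF4 site, and TTNNGNAA, a C/EBP site. The C6 window, chr15:4727489-4727688, is centred 414 bp downstream of the gene start and held no match. The C9 window, chr15:6446992-6447191, is centred 1765 bp downstream and held one match to TTNNGNAA and one to GTTAAT. Both windows give the sequence of B6, the strain without these peaks, and the MSM sequence was not read.
C6 intron 1: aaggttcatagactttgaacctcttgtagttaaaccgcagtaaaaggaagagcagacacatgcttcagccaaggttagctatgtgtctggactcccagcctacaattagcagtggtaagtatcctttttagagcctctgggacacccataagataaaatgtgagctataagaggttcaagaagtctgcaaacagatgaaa
C9 intron 1: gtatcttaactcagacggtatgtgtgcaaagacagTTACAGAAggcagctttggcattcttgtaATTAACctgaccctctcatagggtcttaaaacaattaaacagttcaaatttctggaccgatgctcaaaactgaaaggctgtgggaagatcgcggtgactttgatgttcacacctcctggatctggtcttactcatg

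The promoter sequences of C3, C6, C7 and C9 follow, from the RefSeq promoter table of the same build, because C3 had a peak in every library, C6 differed between the strains, C7 had no peak anywhere and C9 had its MSM region away from the promoter. Each is printed on the strand of its gene from 250 bases before the RefSeq start to at most 30 bases past it, with the same motifs in capitals. The windows are chr17:57228107-57228386 (minus strand) for C3, chr15:4726960-4727204 (plus) for C6, chr15:5063744-5064023 (minus) for C7 and chr15:6445096-6445356 (plus) for C9.
C3: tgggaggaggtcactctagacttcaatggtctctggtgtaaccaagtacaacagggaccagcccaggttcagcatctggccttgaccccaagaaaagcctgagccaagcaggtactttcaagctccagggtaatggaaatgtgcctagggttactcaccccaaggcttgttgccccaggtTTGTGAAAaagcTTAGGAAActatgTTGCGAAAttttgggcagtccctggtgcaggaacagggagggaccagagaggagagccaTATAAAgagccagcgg
C6: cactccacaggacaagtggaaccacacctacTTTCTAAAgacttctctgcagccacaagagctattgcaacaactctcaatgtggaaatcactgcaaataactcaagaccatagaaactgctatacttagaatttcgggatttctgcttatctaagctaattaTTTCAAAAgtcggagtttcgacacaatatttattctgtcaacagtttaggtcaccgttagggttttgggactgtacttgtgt
C7: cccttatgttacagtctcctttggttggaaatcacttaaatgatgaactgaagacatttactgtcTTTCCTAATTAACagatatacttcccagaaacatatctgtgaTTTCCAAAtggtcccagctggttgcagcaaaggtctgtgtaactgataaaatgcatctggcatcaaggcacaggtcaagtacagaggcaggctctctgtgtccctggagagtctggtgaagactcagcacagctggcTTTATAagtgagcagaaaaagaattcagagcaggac
C9: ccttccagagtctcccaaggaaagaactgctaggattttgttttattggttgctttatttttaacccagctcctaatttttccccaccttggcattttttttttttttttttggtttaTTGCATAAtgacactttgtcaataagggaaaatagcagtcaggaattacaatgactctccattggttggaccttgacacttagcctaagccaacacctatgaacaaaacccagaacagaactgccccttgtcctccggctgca

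The table held 8 of the 10 gene symbols, and not Cfb or C4b. The motifs were counted in the whole window of 250 bases before to 50 after the start, for 8 promoters, 1 per gene. TTNNGNAA was found in 6 of the 8 (C3, Hc, C6, C7, C8b and C9) and in 40.7% of all 32841 promoters of the table. GTTAAT was found in 4 (Hc, C7, C8a and C8b) against 7.10% of all promoters, TATAAA in 3 (C3, Hc and C7) against 13.6%, and CAAAGTCCA in 0 against 0.475%. In C3 the 3 matches to TTNNGNAA stand within a stretch that starts 70 bases upstream of the RefSeq start, the match nearest the start reads on both strands, and TATAAA begins 14 bases downstream of it. In C7 a TTNNGNAA match overlaps the GTTAAT match by 1 base, so that they share a run of capitals. C7, without any H3K9ac peak, held 3 of the 4 motifs. These matches describe letters and not sites of binding.

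The promoters of the complement genes were poor in CpG. They held 0 to 7 CpG per window, with a median of 3, against a median of 7 over all 32841 promoters and of 22 over the 5211 promoters of genes that had a peak at the start in all 6 lists. The C7 promoter had 0, that of C9 had 1, and those of C3, Hc and C8a had 3 each. Those of C6 and C8b had 6 and that of C8g had 7.

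In all 6 libraries, 8 of the 10 genes had an H3K9ac peak in the locus, and the same 8 had one within 1 kb of the start. These were C3, C4b, Hc, C8a, C8b, C8g, C9 and Cfb. Of all protein-coding genes, 28.5% had a peak in the locus in all 6 lists and 23.6% had one at the start. C6 had a peak in 4 of the 6 lists, and C7 was the 1 gene of the 10 with no peak in any list, as were 47.2% of all genes. The rule for choosing the genes read these lists, so the counts are a description.

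The lists differed in size, which bears on the lengths below. They held between 11619 (B6 replicate 2) and 22968 peaks (B6 replicate 1), covered 6.28 to 16.0 Mb, and had a median fold enrichment between 3.38 (F1 BM) and 5.23 (B6 replicate 1), where fold enrichment is the linear ratio of signal to background at a peak's summit. Over the complement genes the summed acetylated length, the number of bp under peaks, was 16712 and 8772 bp in the B6 libraries, 13220 and 13506 bp in the MSM libraries, 17909 bp in F1 BM and 10316 bp in F1 MB. The B6 libraries therefore lay further apart than the MSM libraries, and their range held both. The lists held no read counts and depth was not used here, so a missing peak cannot be told from a peak too weak for the depth of a library. Liver was sampled whole, and fewer cells of a type and less acetylation per cell cannot be told apart.

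The labelled tissue was checked with marker genes. All 8 hepatocyte markers (Alb, Ttr, Apoa1, Serpina1a, Hnf4a, Cps1, Tat and Fga) had a peak in all 6 lists. Of 6 Kupffer cell markers, 5 had no peak in any list, Clec4f and Adgre1 among them, and the other, Cd68, had one in all 6, of 268 to 1415 bp. No marker of endothelial, stellate, bile duct or lymphoid cells had one in all 6. The endothelial markers had a summed length of 6960 and 0 bp in B6, 956 and 3026 bp in MSM, 6832 bp in F1 BM and 1240 bp in F1 MB, so that the MSM libraries lay inside the range of B6.

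In the highest fold of a peak, 3 of the 8 genes with a peak in all 4 parental libraries (Hc, C8a and C8b) had both MSM libraries above both B6 libraries, against 8.59% of the 6706 genes with such peaks, and 0 of the 8 had both B6 libraries above, against 10.8%.

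**Figure D1:**
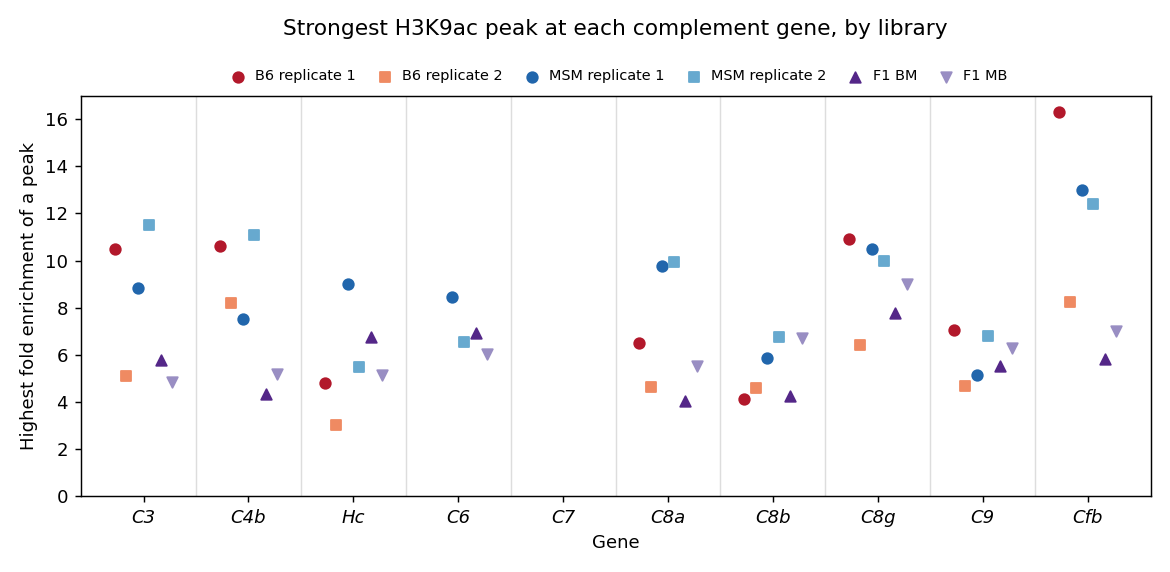
Highest fold enrichment (linear ratio, from 0) of a peak in each gene's locus, 1 point per library, with circles and squares for replicates 1 and 2 of B6 (red) and MSM (blue) and triangles for the F1 hybrids (purple). C7 has no point and C6 none for B6, Hc, C8a and C8b have both MSM points above both B6 points, and the highest point is Cfb in B6 replicate 1 at 16.3.

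C3 and C5, on which all the pathways converge, and C4, which the classical and lectin pathways cleave, come next. C3, whose cleavage labels surfaces with C3b, lies at chr17:57203970-57228136 on the minus strand (ENSMUSG00000024164.15). Its strongest peak began 30 to 105 bp downstream of the start in every library and had its summit in the gene's first kb, 238 to 264 bp from the start, in an intron. The fold of that peak was 10.5 and 5.12 in B6, 8.84 and 11.5 in MSM, 5.76 in F1 BM and 4.83 in F1 MB. B6 replicate 2 and the hybrids had the 3 lowest values, and the strains overlapped. Within its own list the peak stood above 90.3% of the peaks in F1 BM, close to B6 replicate 1 (90.0%) and MSM replicate 1 (91.1%). It stood above 96.4% in MSM replicate 2, 65.2% in B6 replicate 2 and 56.5% in F1 MB. In this place within the list, unlike in fold, both MSM libraries lay above both B6 libraries, at the closest by 91.1% against 90.0%. The share of all genes with that order was not counted, so nothing is read from it.

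The acetylated length of C3 was 2004 and 626 bp in B6, 600 and 1066 bp in MSM, 1078 bp in F1 BM and 347 bp in F1 MB. The strains overlapped, and the difference of their means (MSM minus B6 -482 bp, pooled SD 727.3, n = 2 per strain) was less than the spread between replicates (two-sided exact permutation test, p = 0.667). In every such test of 2 against 2 libraries the smallest p possible is 0.333, so none can pass 0.05. B6 replicate 1 alone had further peaks, 1604 to 1912 bp downstream (fold 3.64) and 4714 to 4403 bp upstream (fold 3.47), the latter just inside the 5-kb limit of the locus.

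C4b encodes C4, the substrate of the classical and lectin proteases, at chr17:34728380-34743882 on the minus strand (ENSMUSG00000073418.4). The mouse genome also holds the near-identical copy C4a, which was not analysed here, and reads may be divided between the copies. The start peak of C4b had a fold of 10.6 and 8.22 in B6, 7.54 and 11.1 in MSM, 4.33 in F1 BM and 5.20 in F1 MB. Both hybrids were thus below all parental libraries. The acetylated length was 1914 and 819 bp in B6, 1509 and 1421 bp in MSM, 1094 bp in F1 BM and 924 bp in F1 MB, and the strains overlapped (MSM minus B6 98.5 bp, pooled SD 549.3, n = 2 per strain, exact permutation p = 1).

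A separate peak lay at the far end of C4b, 14915 to 15588 bp downstream of the start at its widest. It was called in B6 replicate 1 (fold 3.81), MSM replicate 1 (fold 5.80) and MSM replicate 2 (fold 5.21), and in neither B6 replicate 2 nor either hybrid. B6 replicate 1 had in addition a small peak 414 to 147 bp upstream of the start.

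Hc encodes C5, whose fragments are the anaphylatoxin C5a and the C5b that starts the membrane attack complex. The gene lies at chr2:34983331-35061438 on the minus strand (ENSMUSG00000026874.10). Unlike at C3, its start peak crossed the gene start in 5 of 6 libraries, reaching 533 and 224 bp upstream in B6, 22 and 293 bp in MSM and 317 bp in F1 BM, and began 1 bp downstream of it in F1 MB. The acetylated length was 2301 and 1580 bp in B6, 987 and 1710 bp in MSM, 2756 bp in F1 BM and 609 bp in F1 MB. The hybrids were the longest and the shortest of the 6, and the difference between the strains was close to the spread between replicates (MSM minus B6 -592 bp, pooled SD 510.5, n = 2 per strain, exact permutation p = 0.667).

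The highest fold at Hc was 4.81 and 3.04 in B6, 9.01 and 5.48 in MSM, 6.75 in F1 BM and 5.14 in F1 MB. Both MSM libraries were above both B6 libraries (MSM minus B6 3.32, pooled SD 1.97, n = 2 per strain, described without a test). The difference was 1.55 without MSM replicate 1 and 5.09 without MSM replicate 2. In MSM replicate 2 the highest fold was not that of the start peak, which had 4.71, but of a peak 2821 to 2531 bp upstream, and with the start peak alone the strains overlapped. That upstream position also had peaks in B6 replicate 1 (fold 3.04) and F1 BM (fold 2.58), and in no other list.

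Factor B, the protease of the alternative pathway convertase, is encoded by Cfb at chr17:34856374-34862518 on the minus strand (ENSMUSG00000090231.10). The end of C2, its paralogue in the classical pathway, lies 85 bp from the Cfb start, and the main peak of B6 replicate 1 ran across it. Cfb had the strongest peak of all 10 genes in B6 replicate 1, B6 replicate 2, MSM replicate 1 and MSM replicate 2, with folds of 16.3, 8.24, 13.0 and 12.4. In the hybrids the fold was 5.81 (F1 BM) and 7.0 (F1 MB), below every parental library. Summits lay 592 to 679 bp downstream of the start, in a coding exon.

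The acetylated length of Cfb was 2436 and 1413 bp in B6, 1282 and 1412 bp in MSM, 1952 bp in F1 BM and 1083 bp in F1 MB. The strains did not overlap, but B6 replicate 2 and MSM replicate 2 differed by only 1 bp (MSM minus B6 -577.5 bp, pooled SD 515.6, n = 2 per strain, exact permutation p = 0.333). With B6 replicate 1 left out the difference was -66 bp, and it was -1089 bp with B6 replicate 2 left out. Of the 9 genes with a peak in a parental library, Cfb was the 1 that was longer in B6, against 11.6% of the 11446 genes with such a peak. In B6 replicate 2, MSM replicate 1 and both hybrids the acetylation over Cfb was called as separate peaks with a gap that began 975 to 1101 bp downstream of the start, where B6 replicate 1 and MSM replicate 2 had 1 continuous peak.

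**Figure D2:**
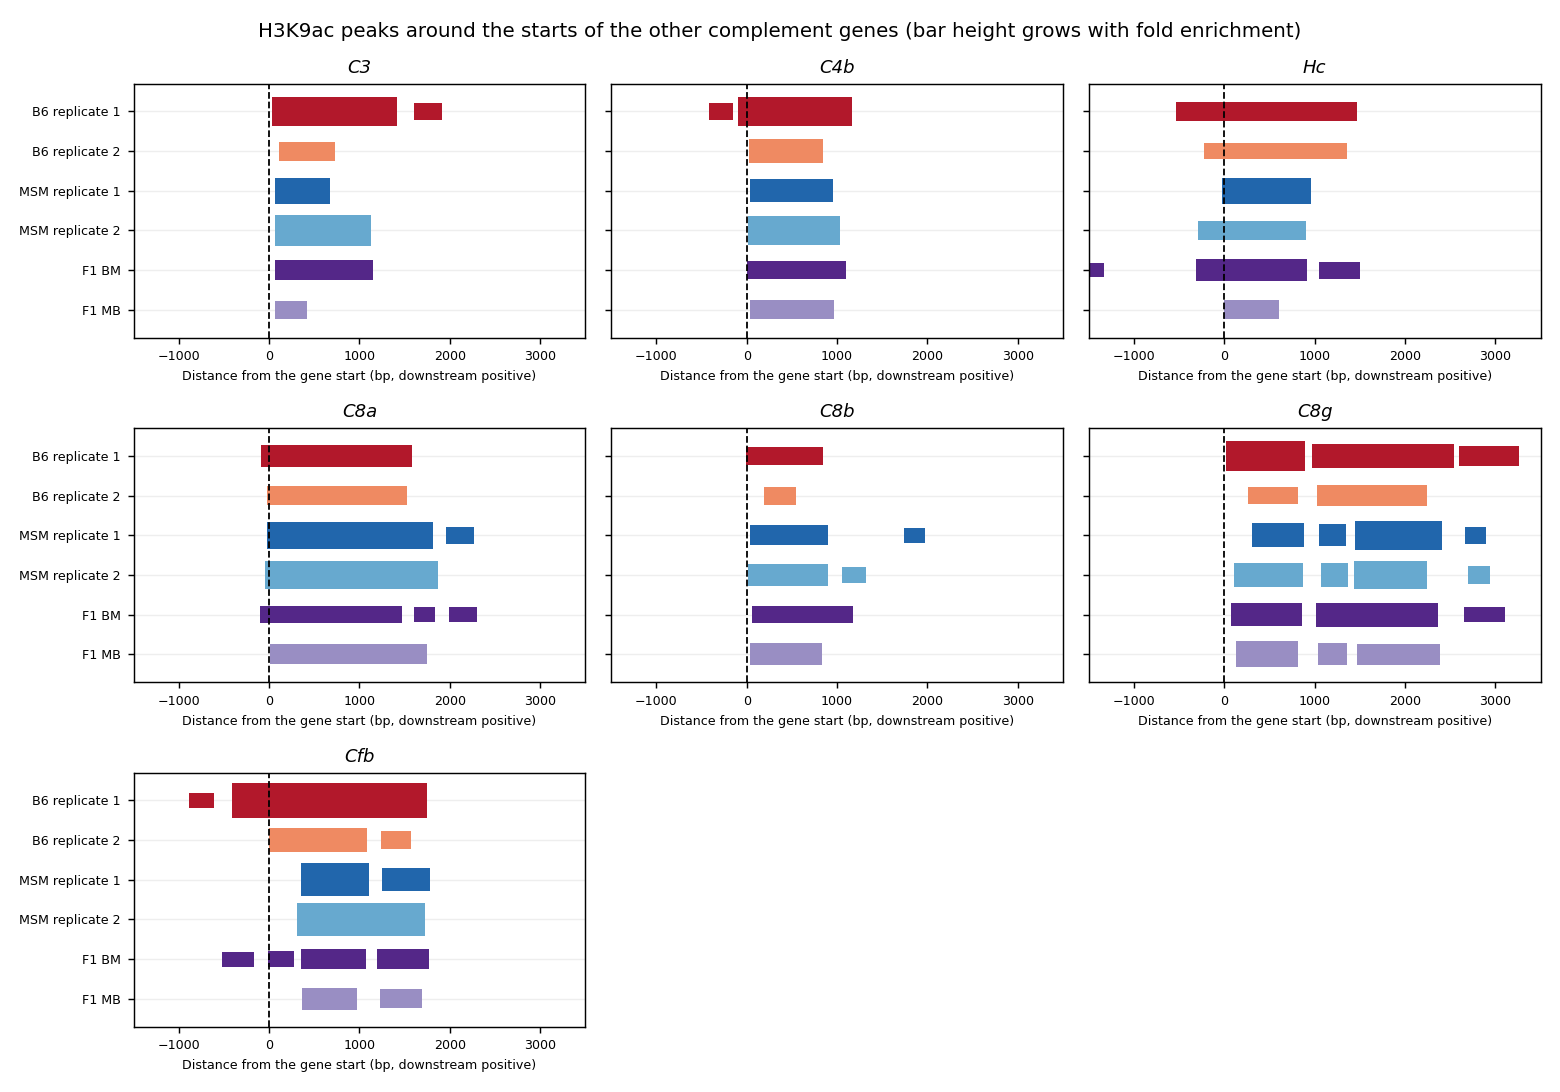
Peaks of each library around the starts of C3, C4b, Hc, C8a, C8b, C8g and Cfb, by distance from the gene start in bp with downstream to the right. Each bar is a peak, taller for a higher fold enrichment; C3 has a start peak in every library that begins 30 to 105 bp downstream of the dashed line, and the C8b start peak is shortest in B6 replicate 2, at 352 bp.

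Among the genes of the membrane attack complex, C6 had no peak in either B6 library and a peak at the start in both MSM libraries and both hybrids. This pattern was found at 12 of the 21911 genes (0.0548%). C6 was chosen for the parental side of this pattern, so this share does not measure how unusual C6 is. The hybrids had no part in that choice. C6 joins C5b in the first step of assembly. The gene lies at chr15:4727175-4814967 on the plus strand (ENSMUSG00000022181.16).

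The C6 peak reached from 43 to 1182 bp downstream of the start in MSM replicate 1 and from 97 to 1016 bp in MSM replicate 2, with summits at 412 and 417 bp. In F1 BM it reached from 55 to 1479 bp with its summit at 430 bp, and in F1 MB from 58 to 718 bp with its summit at 498 bp, followed by a weak peak from 978 to 1204 bp (fold 3.03). All of these summits lay in intron 1, which runs from the end of the first exon at 4727317 to the second exon at 4731640. Of the other protein-coding transcripts, 2 start 41 bp downstream of the gene start, at the edge of the peak, and 1 starts 4481 bp downstream, outside it.

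The fold of the C6 peak was 8.47 and 6.53 in MSM, 6.91 in F1 BM and 6.02 in F1 MB. Within each list, 89.4%, 74.1%, 95.2% and 76.1% of peaks had a lower fold, so that the C6 peak was in the upper part of every list that held it. The −log10 q was 33.7 and 29.0 in MSM, 39.7 in F1 BM and 16.4 in F1 MB. C6 had an acetylated length of 0 and 0 bp in B6, 1140 and 920 bp in MSM, 1425 bp in F1 BM and 888 bp in F1 MB, which put MSM 1030 bp above B6 with no overlap. The hybrid values are those of whole libraries, and the alleles were not separated.

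The list of B6 replicate 1, which was the largest of the 6 and covered 16.0 Mb, held no peak anywhere in the 87793 bp of the C6 gene or the 5 kb before it. The printed C6 promoter, upstream of the peak, was free of peaks in every library.

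**Figure D3:**
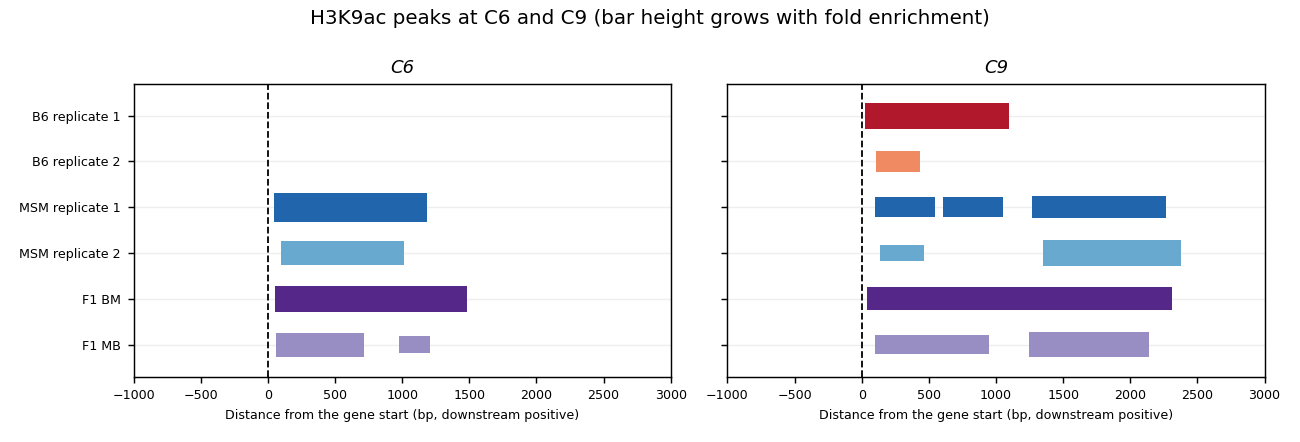
Peaks at C6 and C9 in each library, by distance from the gene start in bp with downstream to the right. Bars are peaks, taller for a higher fold enrichment; at C6 the B6 rows are empty, and at C9 every library has a peak near the start whereas both MSM and both F1 libraries reach 2141 bp or further.

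C7, which follows C6 in the complex, lies 173.8 kb from C6 and on the opposite strand, at chr15:4988762-5063740 (ENSMUSG00000079105.4). None of the 6 lists had a peak in its 74979 bp or around its start, and the acetylated length was 0 bp in every library. C7 was thus unlike every other gene of the complex, each of which had a start peak in at least 4 libraries. Its promoter, printed above, had the fewest CpG of the 8.

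C8a and C8b encode the alpha and beta chains of C8 and stand end to end on chromosome 4, with 11.1 kb between them. C8a lies at chr4:104815679-104876398 on the minus strand (ENSMUSG00000035031.15). Its start peak was long in every library, 1551 to 1920 bp, and its acetylated length was 3032 and 1865 bp in B6, 2653 and 2361 bp in MSM, 3631 bp in F1 BM and 2006 bp in F1 MB. The strains overlapped (MSM minus B6 58.5 bp, pooled SD 601.5, n = 2 per strain, exact permutation p = 1).

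The fold of C8a separated the strains where its length did not. It was 6.51 and 4.65 in B6 and 9.75 and 9.92 in MSM, with 4.06 in F1 BM and 5.54 in F1 MB. MSM was higher by 4.26 (pooled SD 0.936, n = 2 per strain, described without a test), while both hybrids lay below both MSM libraries. The peak stood above 65.9% and 54.0% of its list in B6, 94.0% and 93.3% in MSM, 70.0% in F1 BM and 69.6% in F1 MB. By this place both hybrids lay above both B6 libraries, whereas in fold F1 BM lay below them. MSM replicate 1 had its summit 742 bp downstream of the start, and the other 5 libraries had it at 120 to 185 bp.

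C8a also had weak peaks far down the gene, 37210 to 59219 bp from the start, in all 6 lists, with folds of 2.76 to 4.43. The last of these, chr4:104817179-104817538 in the UTR at the gene end, was called in both B6 libraries (folds 2.77 and 2.91) and in no MSM or hybrid library. It was the 1 B6-specific region among the 27 regions at these genes, against 3.29% of all 25803 regions, where a region is the union of touching or overlapping peaks in the 4 parental lists. Its folds were near the floor of their lists, in which 2.83% and 4.51% of peaks had a lower fold.

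C8b lies at chr4:104766317-104804548 on the plus strand (ENSMUSG00000029656.13) and had the shortest acetylation of the C8 genes. The length was 852 and 352 bp in B6, 1100 and 1152 bp in MSM, 1112 bp in F1 BM and 799 bp in F1 MB. Both MSM libraries were longer than both B6 libraries (MSM minus B6 524 bp, pooled SD 251.3, n = 2 per strain, exact permutation p = 0.333), and F1 MB lay inside the range of B6. Without B6 replicate 2 the difference was 274 bp. Part of the MSM length came from small second peaks at different places, 1745 to 1976 bp downstream in MSM replicate 1 and 1058 to 1324 bp in MSM replicate 2, and the main peaks were 868 and 885 bp against 852 and 352 bp in B6. The peak in B6 replicate 1 was thus almost as long as those of MSM.

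The fold of C8b was 4.14 and 4.58 in B6, 5.87 and 6.74 in MSM, 4.24 in F1 BM and 6.72 in F1 MB. MSM was higher without overlap (MSM minus B6 1.95, pooled SD 0.487, n = 2 per strain, described without a test). Within its own list the peak stood above 29.7% and 52.4% of the peaks in B6, 67.3% and 76.4% in MSM, 83.6% in F1 MB and 73.8% in F1 BM. In fold F1 BM lay near B6, but in its place in the list it lay between the MSM libraries. Each cross has 1 library and no replicate check.

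C8g encodes the gamma chain, a lipocalin, in a gene of 3069 bp at chr2:25498651-25501719 on the minus strand (ENSMUSG00000015083.11). The start of Fbxw5, which encodes an F-box protein of a ubiquitin ligase, lies inside it on the opposite strand, 969 bp downstream of the C8g start. Peaks were called on both sides of that start in every library and none covered it, and another C8g transcript begins 1106 bp downstream of the gene start. The highest fold was 10.9 and 6.42 in B6, 10.5 and 10 in MSM, 7.76 in F1 BM and 9.02 in F1 MB. From these lists acetylation cannot be divided between C8g and Fbxw5.

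The acetylated length over C8g was 3104 and 1782 bp in B6, 2057 and 2103 bp in MSM, 2588 bp in F1 BM and 1917 bp in F1 MB. The MSM libraries lay within the range of B6 (MSM minus B6 -363 bp, pooled SD 661.4, n = 2 per strain, exact permutation p = 1). On the side of the Fbxw5 start towards the C8g end, leaving out a small peak at that end, acetylation was called as 1 peak in both B6 libraries and F1 BM and as 2 peaks in both MSM libraries and F1 MB.

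C9, the subunit that polymerises into the pore, lies at chr15:6445327-6498751 on the plus strand (ENSMUSG00000022149.17). It had a peak at the start in all 6 lists and a further region in MSM. The region, chr15:6446594-6447706, reached from 1267 to 2379 bp downstream of the start, in intron 1, between the first exon that ends at 6445483 and the second that begins at 6458177. It had a fold of 5.16 and 6.81 in MSM and no peak in B6. Both hybrids were acetylated there: F1 MB had a peak of its own from 1248 to 2141 bp (fold 6.30), and F1 BM had 1 peak of 2273 bp that ran from 38 to 2310 bp (fold 5.52) with its summit at 1665 bp, in the MSM region.

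At the C9 start itself the fold was higher in B6. The peak there had a fold of 7.05 and 4.66 in B6 against at most 4.35 and 2.65 in MSM, without overlap. Its −log10 q was 17.3 and 9.73 in B6 and at most 11.4 and 2.43 in MSM, with overlap. Counting only the 1 kb around the start, the acetylated length averaged 655.5 bp in B6 and 584 bp in MSM, and the strains overlapped. Over the whole locus the length was 1069 and 335 bp in B6, 1892 and 1361 bp in MSM, 2273 bp in F1 BM and 1743 bp in F1 MB. MSM was longer without overlap (MSM minus B6 924.5 bp, pooled SD 453.0, n = 2 per strain, exact permutation p = 0.333), and F1 BM was above and F1 MB within the parental range. Without B6 replicate 2 the difference was 557.5 bp.

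Of the 9 genes with a parental peak, 3 were longer in both MSM libraries than in both B6 libraries: C6, C8b and C9. Among the 11446 genes with a parental peak the share was 4.97%, and C6 counts among the 3 by choice. Of the 27 union regions at the complement genes, 2 were MSM-specific, at C6 and C9, beside 3.38% of all 25803 regions, and nothing is read from this count because C6 was chosen by its region. Another 9 of the 27 had a peak in all 4 parental lists, and 15 had some other combination. The call for C9 was lost when only peaks with a −log10 q of at least 5 were kept (760.5 bp, strains overlapping). Without B6 replicate 1, 6 genes were longer in MSM, and without B6 replicate 2, 6 were longer in B6.

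**Figure D4:**
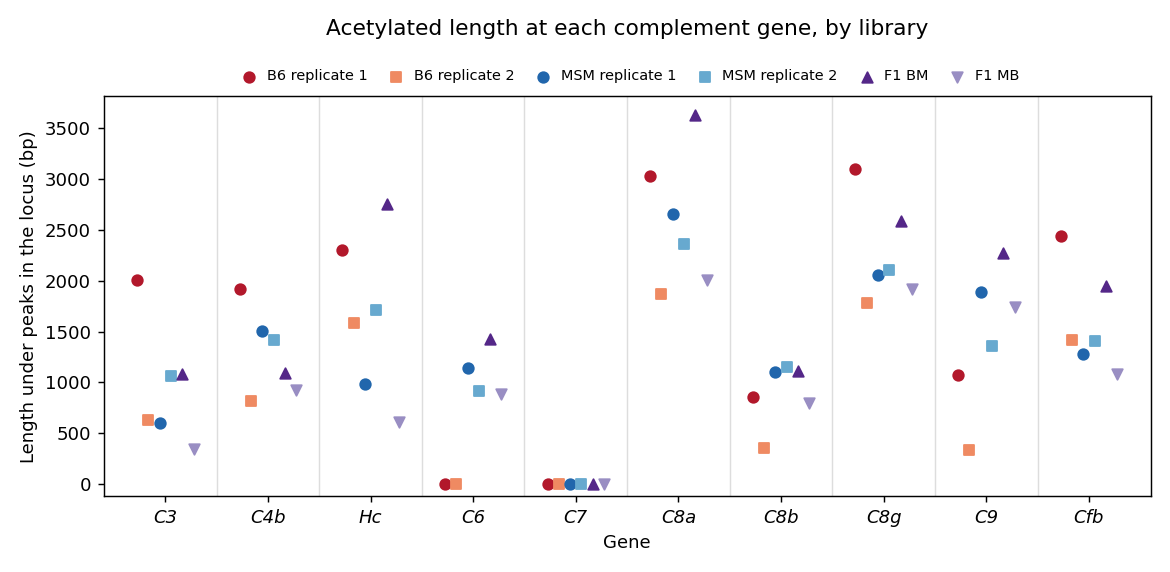
Acetylated length, in bp under peaks in the gene body and the 5 kb either side of the start, 1 point per library with the symbols of the plot of fold enrichment. The 2 MSM points lie above both B6 points at C6, C8b and C9, and at C3, C4b, C8g and Cfb the points of B6 replicate 1 are the highest of the 6.

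The hybrids were set beside the range of the 4 parental libraries. In F1 BM the acetylated length was above that range at 4 of the 9 genes with a parental peak (Hc, C6, C8a and C9), against 13.3% of all such genes, and below it at 0, against 4.94%. In F1 MB it was above at 0, against 1.25%, and below at 3 (C3, Hc and Cfb), against 18.7%. The highest fold was compared at the 8 genes with a peak in all 6 libraries. In F1 BM it was below the parental range at 3 (C4b, C8a and Cfb), against 61.1% of all such genes, and in F1 MB at 3 (C3, C4b and Cfb), against 31.0%. No complement gene was above the range in fold, against 0.464% (F1 BM) and 2.85% (F1 MB) of all such genes. A lower fold in the hybrids was thus common over all genes. The whole list of F1 BM had the lowest median fold of the 6, at 3.38, and that of F1 MB had 4.57. The part of these list-wide levels in the lower folds was not tested.

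Most acetylation near the starts of the complement genes lay downstream, as it did over all genes by the medians given below. Of the 107 peaks, 59 were within 1 kb of the start, and 56 of these had their summit downstream. Another 41 were further downstream and 7 further upstream, in a locus that holds the whole gene on one side and 5 kb on the other. The summit fell in an intron for 67 peaks, in a coding exon for 20, in a UTR for 9, in an exon of a non-coding transcript for 1 and outside the gene for 10. For 77 of the 107 the nearest protein-coding start was that of the gene itself, and the exceptions were the peaks over C8g near Fbxw5 and the weak peaks at the far end of C8a. These peak counts were not made over all genes, so they mark no trait of the complement genes.

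Within 2 kb of the start, the median percent of acetylated bp that lay downstream was 96.9 in B6 replicate 1 and 100 in the other 5 libraries. The same median over all genes with a peak there was 75.7 in B6 replicate 1, 100 in B6 replicate 2, 95.3 and 97.9 in MSM, 87.2 in F1 BM and 100 in F1 MB. All of the acetylation was downstream at 3 of 8 genes in B6 replicate 1 and 5 of 8 in B6 replicate 2, at 7 of 9 in each MSM library, at 6 of 9 in F1 BM and at 9 of 9 in F1 MB. The shares over all genes were 32.0% and 51.1% in B6, 45.6% and 47.6% in MSM, 44.5% in F1 BM and 52.1% in F1 MB.

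Coverage was also read at single positions. At 300 bp upstream of the start a peak covered 37.5% of the complement genes in B6 replicate 1, 22.2% in F1 BM and 0% in the other 4 libraries, whereas 29.1% to 47.0% of all genes with a start peak were covered. The 0% depends on the position. At 200 bp upstream the complement genes had 37.5% and 12.5% in B6 and 0% and 11.1% in MSM. There F1 BM had 22.2% and F1 MB 0%, against 25.1% to 42.8% of all genes. At 500 bp downstream the complement genes were covered at 87.5% to 100%, against 53.9% to 73.3% of all genes. With 8 or 9 genes per library, 1 gene moves these percentages by more than 10, and no test was made.

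**Figure D5:**
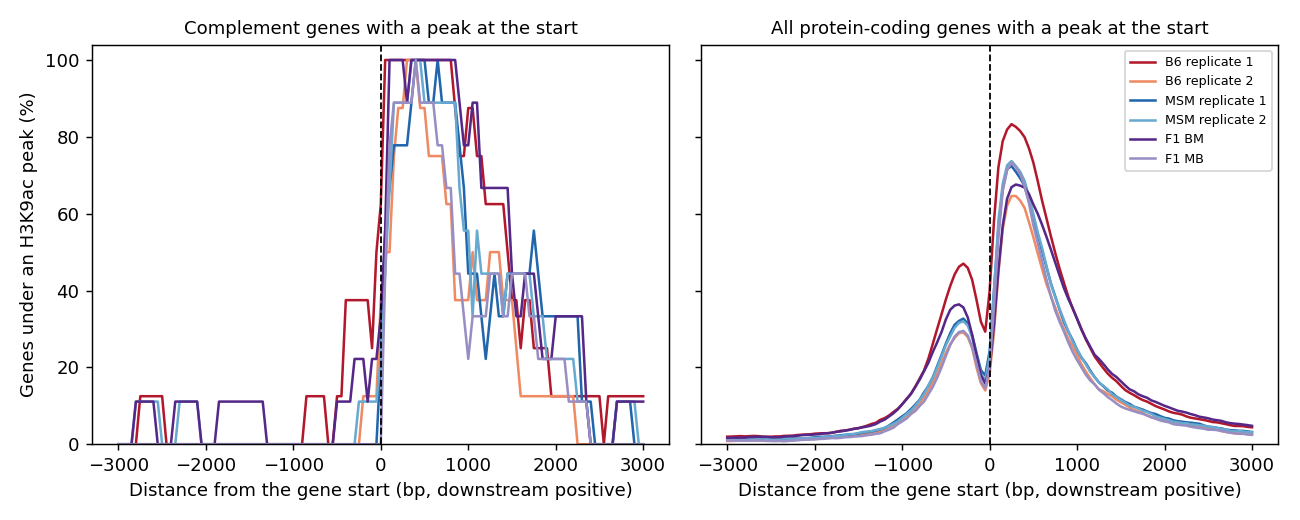
Percent of genes under an H3K9ac peak by distance from the gene start in bp (dashed line at the start), 1 line per library, for the complement genes with a peak at the start (left, 8 or 9 genes) and all protein-coding genes with one (right). All genes show a second, lower maximum upstream of the start, and at 300 bp upstream they are covered at 29.1% to 47.0%, where the complement genes show 0% in 4 of 6 libraries. At 200 bp upstream the complement genes show 12.5% in B6 replicate 2 and 11.1% in MSM replicate 2.

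Other genes of the pathway were taken from a list of 43, of which 41 were in the annotation used. A peak in the locus in all 6 libraries was found at 18 of the 41, against 28.5% of all genes, and no peak in any list at 16, against 47.2%. All 9 of the fluid-phase regulators, which restrain complement in plasma (such as Cfi, Serping1, Clu and Vtn), had a peak at the start in all 6 libraries, against 23.6% of all genes. Of the 16 initiators of the classical and lectin pathways, 6 had a peak in all 6 lists, among them the genes of the lectin proteases Masp1 and Masp2. Of 6 membrane regulators 3 did, and of the 8 receptors none had a peak in any library, as was the case for Cfd and Cfp of the alternative pathway. The subunits of C1q, a product of macrophages, had peaks only in B6 replicate 1, of 234 bp (C1qa), 279 bp (C1qb) and 285 bp (C1qc).

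In acetylated length, 1 of the 24 pathway genes with a parental peak was longer in MSM, against 4.97% of all genes, and 5 were longer in B6, against 11.6%, without overlap. Mbl1, a mannose-binding lectin, had 3889 and 2347 bp in B6 and 4047 and 3923 bp in MSM. The 5 were C1ra and C1s1 (the proteases of C1), Cfhr2, Vtn and Cd59a, and the gap between the strains was 7 to 73 bp at all but Cd59a. Cd59a, an inhibitor of pore formation, had 973 and 867 bp in B6 against 272 and 693 bp in MSM, a gap of 174 bp.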

How the data were processed

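H3K9ac was measured by ChIP-seq in livers of B6 and MSM mice (2 libraries each, from separate individuals) and of F1 BM and F1 MB mice (1 library each), and groups were taken from the sample titles. The authors sequenced 50-bp read pairs and mapped them to mm10 (GRCm38). The study's methods name Bowtie 2 as the aligner, and the submitters' processing notes name HISAT2, with Trim Galore, SAMtools and MACS2, without versions. The peak threshold and the use of inputs were not given in the sources used here. Mapping to the B6 reference can lose MSM reads where the genomes diverge.

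The files deposited were 1 peak list per library. For each peak the deposited columns held a fold enrichment (a linear ratio), its p-value and q-value as −log10, a score that was not used, and the summit position, as the authors' peak caller wrote them. No columns of other samples were present. The depth of the libraries was not held in the lists, and their numbers of peaks bound the precision.

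The genes and lists were chosen with earlier results of these data known. All 10 component genes were named, and other pathway genes were named when the strains did not overlap in acetylated length or when they had a strain-specific region at the start, with a few more as examples of their group, chosen after their values were seen. Of the pathway list, 1 gene is not reported here. Acetylated length was the bp under peaks that overlapped, by at least 1 bp, the gene body and the 5 kb either side of the start (GENCODE M21). B6 and MSM were compared by two-sided exact permutation of the 4 libraries, with 6 possible assignments, and a gene was called longer when the strains did not overlap. The scripts were tested on simulated peaks and used Python 3.11.15, numpy 2.4.6, scipy 1.17.1 and matplotlib 3.10.9. Alternatives were lists of equal number of peaks or equal covered length, a −log10 q of at least 5, other windows (1, 2 and 10 kb), peaks lying mostly in the locus, peaks nearest the gene's own start, and leaving out each parental library.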

Additional observations from a re-analysis of the deposited data

How the results depend on the processing

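In every setting run, C6 and C8b were longer in MSM and Cfb was longer in B6. The MSM-specific region at C6 was also found in every setting. Leaving out a library cannot end such a call or region, so those settings were no check on them. The 2 kb and 10 kb windows, peaks mostly in the locus and peaks nearest the gene's own start changed none of these 3 values. They stayed at 1030 bp (C6), 524 bp (C8b) and -577.5 bp (Cfb), so these settings were no check either. In the main lists the call for Cfb rested on 1413 bp in B6 replicate 2 against 1412 bp in MSM replicate 2. C6 was chosen by its parental values in these lists, so its results restate that choice. The genes with a peak in all 6 libraries fell from 8 to 4 when the lists were trimmed to the same covered length. The genes longer in B6 rose from 1 to 2, with Hc joining Cfb, at a −log10 q of at least 5, with 1 kb around the start and no gene body, with 2 kb around the start and with the same number of peaks. Those longer in MSM rose from 3 to 4 with the same number of peaks, where C4b (428 bp) and C8a (253 bp) joined and C9 left, and with peaks nearest the gene's own start, where C8a (423 bp) joined. The B6-specific region at C8a was lost (0) at a −log10 q of at least 5, with 1 kb around the start, with peaks nearest the gene's own start, with the same covered length and with the same number of peaks. The MSM-specific regions fell from 2 to 1 with 1 kb around the start, which leaves out the C9 region, and rose to 3, with C4b joining, at a −log10 q of at least 5 and with the same number of peaks. C9 was not called longer at a −log10 q of at least 5 or with the same number of peaks, with 760.5 bp in both. With 1 kb around the start the mean difference, MSM minus B6, turned with overlapping strains at C4b (-135 bp), C8a (-22.5 bp) and C9 (-71.5 bp), and the fold of C9 turned without overlap (-2.36). With the same covered length it turned with overlap at C4b (-65 bp) and Hc (449 bp). The causes were not tested.

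Leaving out 1 parental library at a time gave 3 to 6 genes longer in MSM (6 without B6 replicate 1), 1 to 6 longer in B6 (6 without B6 replicate 2), 2 to 5 MSM-specific regions (5 without either MSM library) and 1 to 5 B6-specific regions (5 without B6 replicate 2). The length difference turned at C3 (-1171 to 207 bp), C4b (-449 to 646 bp), C8a (-525 to 642 bp) and C8g (-1024 to 298 bp), and the fold difference at C3 (-0.328 to 5.04), C4b (-1.89 to 1.65), C8g (-0.693 to 3.83), C9 (-1.06 to 1.32) and Cfb (-3.62 to 4.46). With all 4 parental libraries the strains overlapped in each of these values. Differences without overlap that moved by over 1.5 times were the length at Cfb (-1089 to -66 bp), C8b (274 to 774 bp) and C9 (557.5 to 1291.5 bp) and the fold at Hc (1.55 to 5.09). Over the 9 complement genes with a parental peak, 82 of 108 alternative values of the length kept direction and call, 16 kept direction with another call, and 6 turned with the same call and 4 with another. For the highest fold of 8 genes, 74 of 90 kept both, 8 kept direction with another call, and 3 turned with the same call and 5 with another. Both counts include the settings that leave out a library, in which a gene called with all 4 could not lose its call. The count for the length also includes C6, chosen by its values in these lists. Part of the kept values was therefore fixed in advance.

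Deviations of same-numbered libraries from their strain mean had a Pearson r of 0.0832 over 11446 genes, which are not independent, in 2 pairs. With 2 libraries per strain this cannot tell whether same-numbered libraries were paired. With the replicate number as a block, the mean differences were the same by construction (C8b 524 bp, C9 924.5 bp, Cfb -577.5 bp), and the smallest exact p a paired test allows is 0.5. A peak absent from the short list of B6 replicate 2 may have been too weak to be called.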
